A study of Mus musculus with 8 samples.

Results

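Nested inversions of the mouse X-inactivation centre were compared here by 5C, in 4 of the 8 libraries analysed. 245kb-INV mirrors chrX:100377328-100622017 (mm9), and Linx-51kb-INV mirrors an interval inside it, within the gene Linx. The 4 libraries were taken by their genotype labels, 2 of each allele, and the remaining 4 libraries carry the deletions Chic1-4kbD or Chic1-14kbD, 2 of each. All are male E14 mouse embryonic stem cells (XY, 129/Ola), which carry a single X chromosome, collected at day 0 (undifferentiated). The question was which contacts change whenever Linx is turned round, and so in both inversions, and which change when the whole domain is moved, and so in 245kb-INV only. Libraries of 245kb-INV, Linx-51kb-INV and Chic1-4kbD came from 2 separate clones each, whereas both Chic1-14kbD libraries came from 1 clone, and the inversions were thus read against alleles that themselves lack part of Chic1. Unmodified cells were not analysed here.

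The X-inactivation centre holds Xist, the noncoding RNA that coats and silences an X chromosome, and Tsix, the antisense transcript that represses it. These lie in neighbouring topologically associating domains (TADs), stretches of chromatin that contact themselves more than their surroundings. TADs are formed by loop extrusion that is stopped by CTCF, and CTCF stops it according to the orientation in which its motif lies, so that turning a cluster of CTCF sites can redirect its contacts. Linx and Chic1 each hold a cluster of CTCF sites in the Tsix-TAD. Linx is a noncoding RNA gene, Nap1l2 a nucleosome assembly protein gene inside its transcription unit, Cdx4 a homeobox gene, and Tsx a gene expressed mainly in testis.

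For description, the inverted 244.7 kb were divided in 2 ways. They were cut into 5 tiles of 48.9 kb (I1 to I5), flanked by 50 kb tiles numbered outwards to the left (L1, L2 and on) and to the right (R1, R2 and on). They were also cut at the genes into 5 segments. S1 is the left end (76.4 kb, with Nap1l2 and the 3′ part of Linx), and S2 is the interval mirrored in both alleles (42.3 kb within Linx). S3 runs from there to Chic1 (55.8 kb, with the 5′ end of Linx and Cdx4), S4 is Chic1 (39.6 kb), a gene for a membrane-associated protein, and S5 is the right end (30.6 kb, with Tsx). R1 holds most of Tsix and the 3′ part of Xist, R2 the 5′ end of Xist and Jpx, and R3 and R4 hold Ftx. S2 is set by restriction fragments and is therefore shorter than the labelled 51 kb.

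The sequence at the ends of the large inversion shows what was joined, with bases inside the inverted interval in capitals, 20 on each side. The breakpoints are those given for the first clone, and the junctions were assembled from the mm9 reference and not read from the clones.
left breakpoint, reference (chrX:100377308-100377347, + strand): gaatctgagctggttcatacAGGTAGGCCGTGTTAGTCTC
right breakpoint, reference (chrX:100621998-100622037, + strand): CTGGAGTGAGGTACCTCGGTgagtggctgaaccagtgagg
left junction, 245kb-INV: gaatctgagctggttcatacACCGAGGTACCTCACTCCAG
right junction, 245kb-INV: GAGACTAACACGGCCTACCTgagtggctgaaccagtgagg
The left junction places the end of S5 beside L1, and the right junction places the start of S1 beside R1.

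Orientation was also read from the sequence of the Linx interval. An exact search for the CTCF consensus on both strands found 3 matches in the 245 kb interval, all on the + strand and so all reading towards Tsix and Xist in the reference. They are shown with the match in capitals, because both matches of S2 are turned in both inversions and the match of S1 in 245kb-INV only.
S1, 11.3 kb from the left breakpoint (chrX:100388597-100388610 in capitals): ttggttggCCACCAGAGGGCACtcttgatt
S2, 78.1 kb from the left breakpoint (chrX:100455393-100455406 in capitals): ccaggtgaCCACTAGATGGCGGtatagtat
S2, 92.6 kb from the left breakpoint (chrX:100469880-100469893 in capitals): acttcaggCCACCAGGTGGCAGttttgtac
Of 3832 chromosome X windows as long as S2, 0.261% held 2 or more such matches, and of 669 windows as long as the large interval, 1.35% held 3 or more. These letters had no exact match in S3, S4 or S5, which says nothing of binding there.

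The 8 libraries held 1614282 to 21046109 counts, the 4 inversion libraries 11510727 to 20934189. The second Chic1-14kbD library was the shallowest. Pairs of a chromosome X with a chromosome 5 primer took 1.18 to 2.34% of the counts in the inversion libraries, 1.52 and 1.74% in Chic1-4kbD, and 0.278 and 0.130% in Chic1-14kbD, which stands apart. At 3 of the 4 new junctions, contacts with the new neighbour relative to the reference neighbour were highest in the libraries whose labels name the junction. The right end of the Linx interval was not checked. At the left end, the log2 ratio of contacts with the new neighbour over the reference neighbour was 1.75 and 1.05 in 245kb-INV and between -3.42 and -2.67 in the other 6 libraries. At the right end it was 0.93 and 1.14 against -1.23 to -0.84. At the left end of the Linx interval it was -0.57 and -0.74 in Linx-51kb-INV and -2.44 to -1.61 elsewhere, and so negative in all 8 libraries.

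Contacts are given as log2 of the observed count over the count expected at that distance in the same library, with distances measured on the mirrored allele. Values of 0 mean the average for the distance, and a difference between alleles is a log2 fold change with its standard error (SE), from 2 libraries an allele. Adjusted p-values are from edgeR's quasi-likelihood test with Benjamini-Hochberg adjustment. 5C averages over many cells, so a contact made in fewer cells and a weaker contact in every cell cannot be told apart.

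Pairs with a tile of the inverted interval were called at a higher share than pairs without, in both inversions. Of 1159 tile pairs up to 700 kb apart, 46 differed directly between 245kb-INV and Linx-51kb-INV (3.97%), with 19 higher (1.64%) and 27 lower (2.33%) in 245kb-INV. Among the 114 pairs with a tile of the interval 15 differed (13.2%), and among the 1045 without such a tile 31 did (2.97%). Against the mean of both deletion alleles, 92 pairs were called in 245kb-INV (7.94%), with 47 higher (4.06%) and 45 lower (3.88%). In Linx-51kb-INV 199 were called (17.2%), with 88 higher (7.59%) and 111 lower (9.58%). Of pairs with a tile of the interval, 45.6% were called in 245kb-INV and 37.7% in Linx-51kb-INV, and of pairs without, 3.83% and 14.9%. For scale, the 2 deletion alleles differed from each other at 220 pairs (19.0%), of which 201 had no tile of the interval.

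By the rule of the comparison, 53 tile pairs changed in the same direction in both inversions (4.57% of those tested), 29 higher and 24 lower. Of these, 31 involved a tile of the inverted interval, and 38 of the 53 had no call in the direct comparison. The deletion alleles also differed from each other at 30 of the 53, against 19.0% of all pairs tested. A further 8 pairs changed in 245kb-INV only (0.69%) and 19 in Linx-51kb-INV only (1.64%). By edgeR no pair changed in opposite directions, with 1 such pair at an unadjusted p under 0.05 and 0 by DESeq2. Both inversions share their controls in this count. Against Chic1-4kbD alone the shared pairs fell to 7 of 1159, and all 7 involved the inverted interval, namely I2 with R1, R2, R3 and R5, I1 with I3 and I4, and I3 with I5. Outside the interval that count was 0 of 1045 by edgeR (4 at an unadjusted p under 0.05, 0 by DESeq2). Against Chic1-14kbD alone it was 166, of which 125 lay outside the interval. With separate controls it was 10, or 24 with the deletion alleles exchanged, and both sets held the same 7 pairs.

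**Figure D1:**
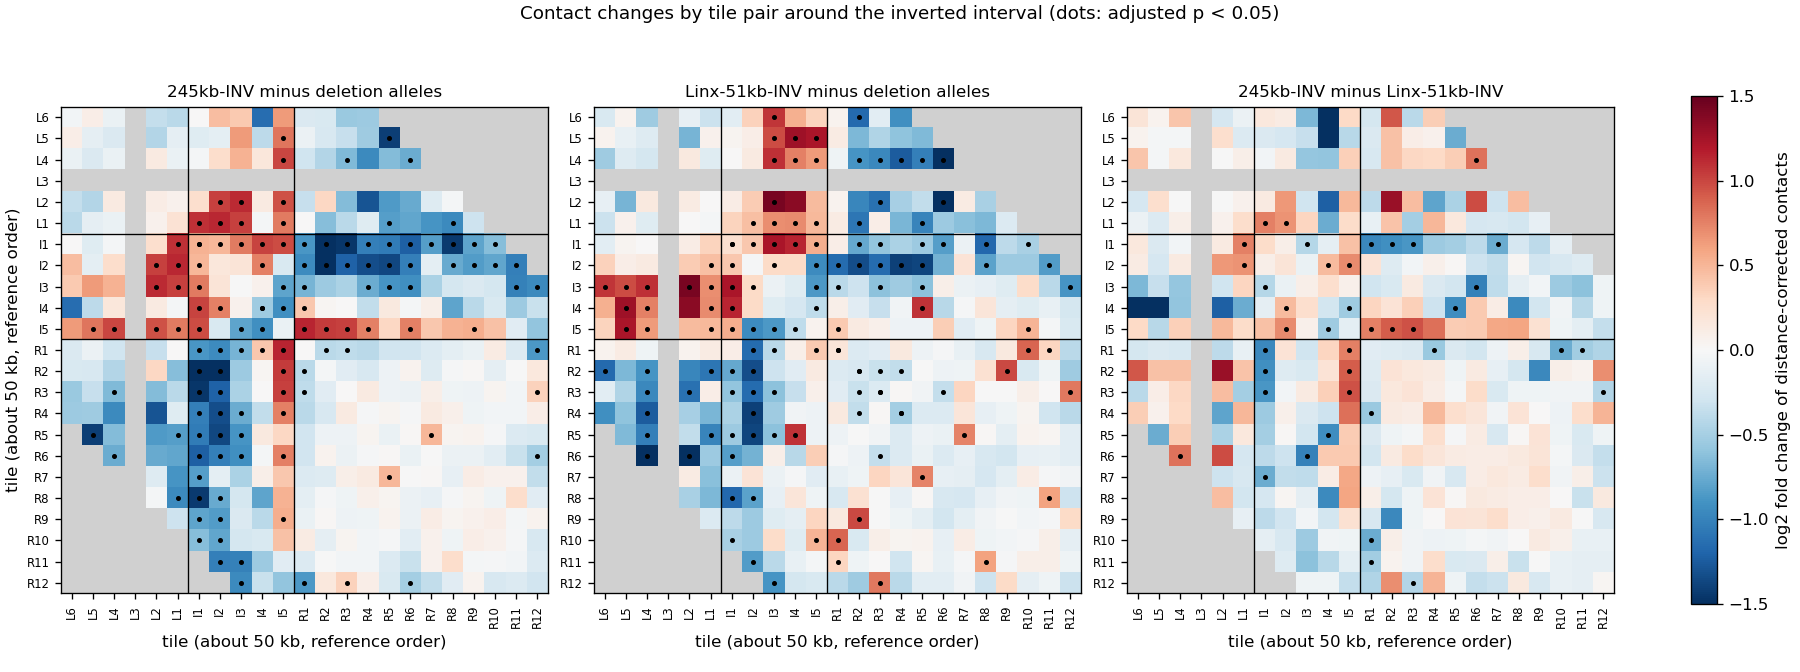
Log2 fold change of distance-corrected contacts for each pair of tiles, in reference order, for 245kb-INV (left) and Linx-51kb-INV (middle) against the mean of both deletion alleles, and for the direct comparison (right). Lines bound the 5 inverted tiles, dots mark adjusted p under 0.05 and grey pairs were not tested. The blue row of I2 with R1 to R5 appears in the left and middle panels and not in the right panel, whereas I1 and I5 with R1 to R3 stand out in the right panel.

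Relative to the deletion alleles, both inversions had fewer contacts between the Linx interval and the side of Tsix and Xist. The authors report an apparent increase of contacts between Linx and Xite, a Tsix enhancer, in these deletion alleles against unmodified cells. Whether it adds to the falls given here was not tested. S2 with R1 was 0.68 and 0.90 in 245kb-INV and 0.53 and 0.67 in Linx-51kb-INV, against 1.93 and 1.74 in Chic1-4kbD and 1.87 and 2.20 in Chic1-14kbD. All 4 inversion libraries lay below all 4 deletion libraries. The contact fell by 1.15 (SE 0.11, adjusted p = 2e-07) in 245kb-INV and by 1.34 (SE 0.12, adjusted p = 8.1e-08) in Linx-51kb-INV, 2.22 and 2.53 times lower. The inversions themselves differed by 0.19 (95% interval -0.07 to 0.46, adjusted p = 0.285). S2 lies 122.6 kb from R1 on the 245kb-INV allele and 172.1 kb from it on the Linx-51kb-INV allele, which the values correct for. Without that correction, with library size alone, 245kb-INV was the higher by 0.72 (adjusted p = 0.000544), at 1383 and 1591 against 868.2 and 931.7 counts per 1000000 chromosome X counts. The difference of R1 with S2 was 0.08 to 0.72 over 17 alternatives and passed the test in 2 of them.

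The same held further into the Xist-TAD. From R1 to R5, S2 fell in 5 of 5 tiles in both inversions, by 1.05 to 1.35 in 245kb-INV and by 1.07 to 1.34 in Linx-51kb-INV. The background was 24.5% of 110 segment pairs called lower in 245kb-INV and 15.5% in Linx-51kb-INV. The direct difference was between -0.13 and 0.19 in these 5 pairs, and by edgeR 0 of 5 were called, also at an unadjusted p under 0.05 and by DESeq2. With R5, which holds Zcchc13, a zinc finger protein gene, S2 was -1.16 and -1.67 in 245kb-INV and -1.45 and -1.17 in Linx-51kb-INV. The deletion alleles had -0.38 and -0.26, and 0.30 and 0.12, and thus lay above all 4 inversion libraries. Each of the 5 falls also passed the test against Chic1-4kbD alone and against Chic1-14kbD alone, in both inversions.

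Beyond R5 the picture was less uniform. S2 was lower in both with R9, by 0.81 and 0.79 on the log2 scale (-0.81 and -0.79), and with R11, which holds Rlim, an activator of Xist (-1.03 and -0.79). Against Chic1-4kbD alone R9 missed the threshold in both inversions (adjusted p = 0.157 and 0.255), and R11 missed it in Linx-51kb-INV (adjusted p = 0.209). With R10 neither inversion passed the test (-0.26 and 0.07).

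**Figure D2:**
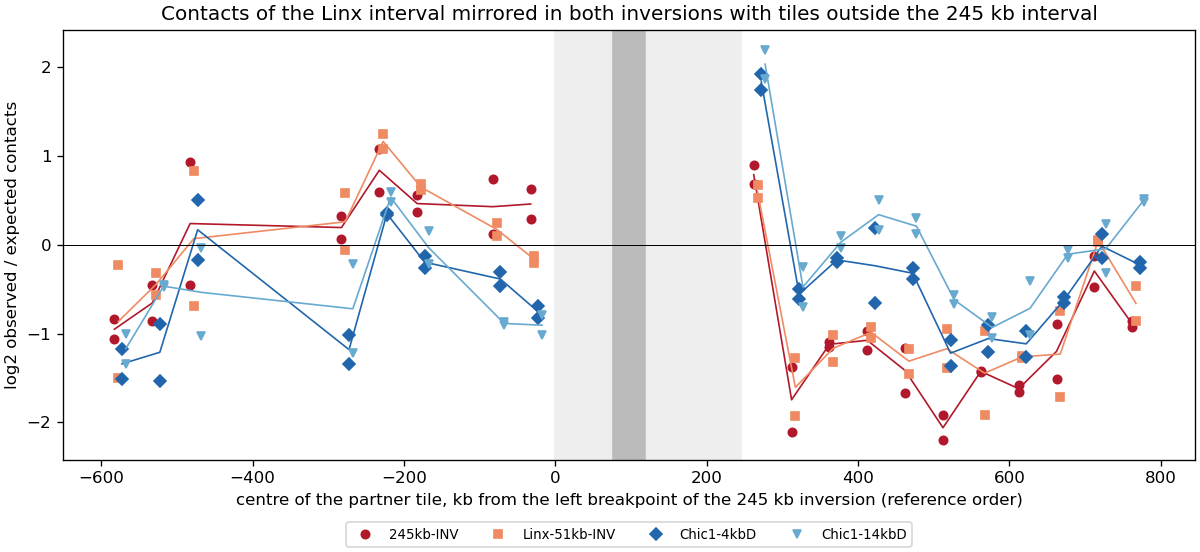
Log2 observed over expected contacts of the doubly mirrored Linx interval with each tested tile outside the 245 kb interval, against the distance of the tile's centre from the left breakpoint in kb. Points are libraries, lines join allele means, the light band is the 245 kb interval and the dark band the Linx interval. Right of the interval both inversions run below both deletion alleles up to R5. Left of it they run above them at L1, L2, L4, L5 and L6, and L3 has no fragment.

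On the opposite side the Linx interval had more contacts than in the deletion alleles. With L1, next to the interval on the left, S2 was 0.29 and 0.63 in 245kb-INV, -0.20 and -0.13 in Linx-51kb-INV, and -1.02 to -0.69 in the deletion libraries. The 3 sets did not overlap. S2 with L1 rose by 1.29 (SE 0.15, adjusted p = 1.67e-06) in 245kb-INV and by 0.66 (SE 0.16, adjusted p = 0.00275) in Linx-51kb-INV, and the rise was larger in 245kb-INV by 0.64 (adjusted p = 0.0127). That difference kept its direction (0.28 to 0.79) but passed in 12 of 17 alternatives, missing without the correction for the mirrored distance (0.50 and 0.28), without the second 245kb-INV library (0.46) and without either Linx-51kb-INV library (0.60 and 0.68). On the 245kb-INV allele S2 is further from L1, at 172.1 kb in place of 122.6 kb.

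Of the 8 tiles tested on the left, S2 rose with 4 in 245kb-INV and with 5 in Linx-51kb-INV, and none fell. The background was 28.2% and 19.1% of segment pairs called higher. Coverage on the left is sparse, with 0 kept fragments in L3 and in L7 to L9. S2 rests there on 10 primer pairs with L2, 15 with L5, 20 with L6 and 5 with L10. On the right it rests on 40 to 95. With L6 both rose by similar amounts, 1.08 (adjusted p = 0.00398) and 1.17 (adjusted p = 0.00344), with a direct difference of -0.09 (95% interval -0.80 to 0.62). Against Chic1-14kbD alone both L6 values missed the threshold (adjusted p = 0.0644 and 0.0577). With L4 they rose by 0.57 and 0.75, and with L2 by 1.10 and 0.82. Of these, L4 in 245kb-INV missed it against Chic1-14kbD alone (adjusted p = 0.0536) and L2 in Linx-51kb-INV against Chic1-4kbD alone (adjusted p = 0.22). L5 rose in Linx-51kb-INV (0.72) and was 0.41 in 245kb-INV, which missed the threshold (adjusted p = 0.115). The L5 rise in Linx-51kb-INV missed it against Chic1-14kbD alone (adjusted p = 0.0596). The 3 most distant tiles, L10 to L12, passed in neither inversion, with values from 0.18 to 0.50.

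By tile pair, the shared falls named by the rule were I2 with R5 (-1.36 in 245kb-INV and -1.38 in Linx-51kb-INV), with R2 (-1.52 and -1.33) and with R4 (-1.33 and -1.40). I2 holds 9 fragments of Linx, including both CTCF matches of S2. Against Chic1-4kbD alone, I2 with R4 missed the threshold in Linx-51kb-INV (adjusted p = 0.0716). The shared rises named were L2 with I3 (1.12 and 1.42), I1 with I4 (1.01 and 1.14), L5 with I5 (0.80 and 1.22) and R16 with R25 (1.07 and 1.06). L2 with I3 rests on 11 primer pairs. Against Chic1-4kbD alone it missed the threshold in both inversions (adjusted p = 0.18 and 0.143). In 245kb-INV it also missed against Chic1-14kbD alone (adjusted p = 0.0523). Against Chic1-4kbD alone L5 with I5 missed in both (adjusted p = 0.333 and 0.0946), as did R16 with R25 (adjusted p = 0.0721 and 0.157). R16 with R25 lies outside the interval and differed between the deletion alleles too (-1.31, adjusted p = 8.78e-07). When primer pairs holding over 50% of a tile pair's count were left out, its Linx-51kb-INV value became -0.16 (adjusted p = 0.488).

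Relative to distance, the left end of the interval, S1, had fewer contacts to the right in both inversions than in the deletion alleles. S1 lies outside S2, the interval mirrored in Linx-51kb-INV, although S2 is shorter than the labelled 51 kb. S1 with R2 was -1.94 and -1.89 in 245kb-INV, -1.14 and -1.12 in Linx-51kb-INV, and -0.42 to -0.10 in the deletion libraries. The 3 sets did not overlap, and the fall was 1.65 in 245kb-INV (log2 fold change -1.65, SE 0.16, adjusted p = 1.55e-07) and 0.86 in Linx-51kb-INV (-0.86, SE 0.15, adjusted p = 0.000272). 245kb-INV was the lower of the inversions by a further 0.79 (-0.79, SE 0.17, adjusted p = 0.00216) relative to distance. S1 moves from 281.5 to 113.2 kb from R2, and with library size alone the difference turns to 0.46 (adjusted p = 0.153), with 269.6 and 275.8 scaled counts against 193.5 and 203.8. Of 10 tiles tested on the right, S1 fell with 10 in 245kb-INV and with 7 in Linx-51kb-INV, and 4 differed directly, all lower in 245kb-INV. Over all segment pairs 24.5%, 15.5% and 10.9% were called lower in these comparisons.

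With R1 the fall of S1 belonged to 245kb-INV only. The values were 0.08 and 0.31 in 245kb-INV, 0.95 and 0.88 in Linx-51kb-INV, and 0.95 to 1.23 in the deletion libraries. 245kb-INV lay below all others, by 0.90 against the deletion alleles (-0.90, SE 0.09, adjusted p = 3.27e-07) and by 0.71 against Linx-51kb-INV (-0.71, SE 0.11, adjusted p = 0.000104). These values are relative to distance. S1 moves from 231.5 to 63.2 kb from R1, and per 1000000 chromosome X counts the pair had 4002 and 4672 in 245kb-INV and 1810 and 1730 in Linx-51kb-INV. More contacts were thus counted with R1, but fewer than fragments this close made on average. Without the correction for distance the difference turns to 1.29 (adjusted p = 5.2e-11).

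The right end, S5 with Tsx, showed the converse. S5 with R1 was 0.79 and 0.84 in 245kb-INV, 0.14 and 0.05 in Linx-51kb-INV and -0.35 to -0.16 in the deletion libraries. Relative to distance, it rose by 1.06 (SE 0.09, adjusted p = 4.01e-08) in 245kb-INV and by 0.34 (SE 0.09, adjusted p = 0.00429) in Linx-51kb-INV. The inversions differed by 0.72 (SE 0.10, adjusted p = 8.5e-05). With library size alone the 245kb-INV change turns to -1.09 (adjusted p = 4e-10). The rise in Linx-51kb-INV missed the threshold against Chic1-4kbD alone (adjusted p = 0.0604).

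With R2 and R3, S5 was higher for its distance in 245kb-INV only. With R2 it was -0.47 and -1.58 in 245kb-INV, -2.15 and -1.84 in Linx-51kb-INV, and -2.19 to -1.71 in the deletion libraries, so that both 245kb-INV libraries stood above the other 6 but differed widely from each other. 245kb-INV was higher by 1.01 (adjusted p = 0.00212) than the deletion alleles and by 1.07 (SE 0.29, adjusted p = 0.0102) than Linx-51kb-INV. With R3 it was higher by 0.97 than the deletion alleles (adjusted p = 0.000192) and by 1.06 than Linx-51kb-INV (SE 0.21, adjusted p = 0.00112), which differed from the deletion alleles by -0.09 (adjusted p = 0.722). With R2 Linx-51kb-INV differed from them by -0.06 (adjusted p = 0.886). The R2 values rested on the first 245kb-INV library, without which they were 0.35 against the deletion alleles (adjusted p = 0.266) and 0.41 directly (adjusted p = 0.331), and the direct difference of R2 with S5 passed in 10 of 17 alternatives. Scaled counts did not rise, at 197.0 and 88.46 with R2 in 245kb-INV and 129.7 to 206.2 in the other libraries, and with library size alone the changes against the deletion alleles were -0.35 with R2 (adjusted p = 0.227) and -0.16 with R3 (adjusted p = 0.612). S5 moves away from R1, from 40.3 to 254.4 kb, and its counts with R1 on the same scale were 1048 and 1049 in 245kb-INV and 2457 and 2146 in Linx-51kb-INV. Without the distance correction the difference is -1.13 (adjusted p = 1.02e-08).

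**Figure D3:**
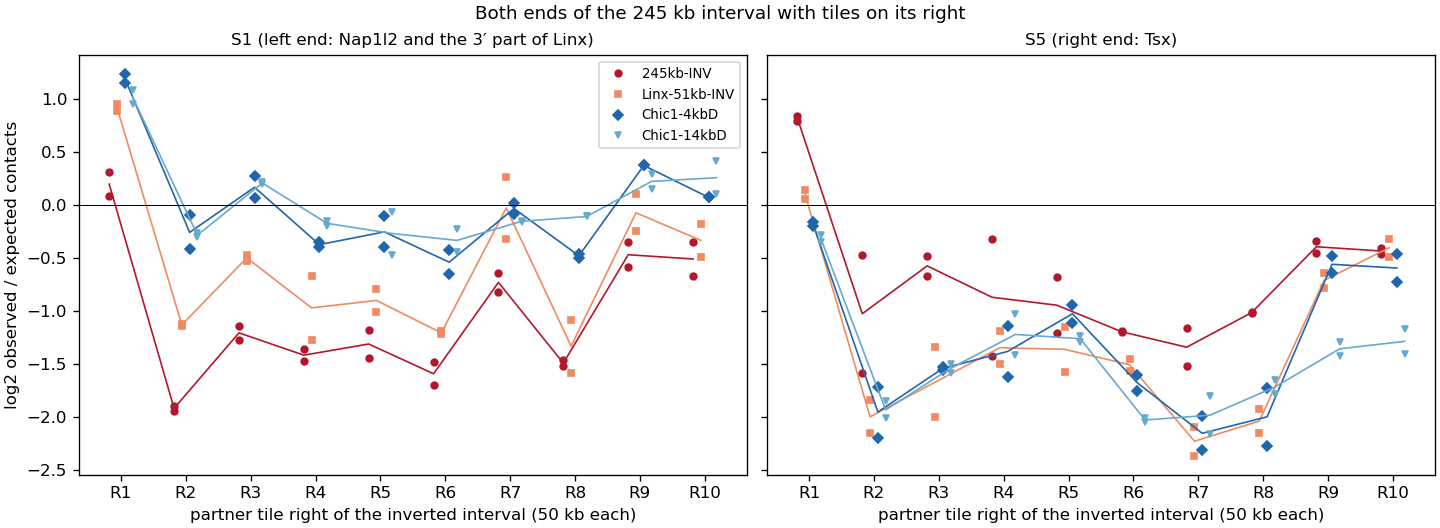
Log2 observed over expected contacts of the left end (S1, left panel) and the right end (S5, right panel) of the 245 kb interval with the 50 kb tiles to its right. Points are libraries and lines join allele means. In S1 the 245kb-INV line runs lowest at R1 to R5 with Linx-51kb-INV between it and the deletion alleles at R2 to R5, and in S5 only 245kb-INV leaves the deletion alleles at R2 and R3.

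S4, the Chic1 segment, also stood higher with the right side in 245kb-INV. The authors report fewer contacts of Chic1 with Linx and with Xite in the deletion alleles than in unmodified cells. In Chic1-4kbD they call these differences close to noise. Whether lowered contacts of the controls add to the rises of S4 given here and below was not tested. With R1 it was 1.28 and 1.36 in 245kb-INV, 0.75 and 0.81 in Linx-51kb-INV, 0.65 and 0.65 in Chic1-4kbD, and 0.14 and 0.04 in Chic1-14kbD. The rise was 0.95 (SE 0.09, adjusted p = 1.55e-07) in 245kb-INV and 0.40 (SE 0.09, adjusted p = 0.002) in Linx-51kb-INV, with a direct difference of 0.54 (adjusted p = 0.00112) that turns to -0.44 (adjusted p = 0.0576) without the distance correction. Linx-51kb-INV did not pass the test against Chic1-4kbD alone (adjusted p = 0.559), and the deletion alleles differed by -0.56. S3, which moves least within the interval, differed with R1 by -0.06 in 245kb-INV (adjusted p = 0.705) and by 0.31 in Linx-51kb-INV (adjusted p = 0.0687).

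On the left neighbour L1, S1 rose in both inversions, by 1.04 (adjusted p = 2e-07) in 245kb-INV and by 0.34 (adjusted p = 0.0173) in Linx-51kb-INV, and the inversions differed by 0.70 (adjusted p = 0.000796). These are rises relative to distance, since S1 moves from 63.2 to 231.5 kb from L1. Scaled counts were 740.5 and 957.2 in 245kb-INV and 1908 to 2127 in the other 6 libraries, and with library size alone the 245kb-INV change turns to -1.23 (adjusted p = 1.97e-12). The change in Linx-51kb-INV missed the threshold when any 1 library of Linx-51kb-INV or Chic1-4kbD was left out (0.29 to 0.38). Linx-51kb-INV did not pass against Chic1-4kbD alone (adjusted p = 0.577). S5, which becomes the neighbour of L1 on the large inversion, rose by 0.81 (adjusted p = 0.000119) in 245kb-INV, whereas Linx-51kb-INV gave 0.04 (adjusted p = 0.86). S4 with L1 was -0.37 and -0.23 in 245kb-INV, 0.48 and 0.11 in Linx-51kb-INV, -0.46 and -0.32 in Chic1-4kbD, and -1.08 and -1.48 in Chic1-14kbD. It rose by 0.53 and 1.12 against the mean of the deletion alleles, and 245kb-INV did not pass against Chic1-4kbD alone (0.10, adjusted p = 0.772). S3 with L1 changed by 0.35 and 0.41 and passed in neither (adjusted p = 0.24 and 0.228).

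**Figure D4:**
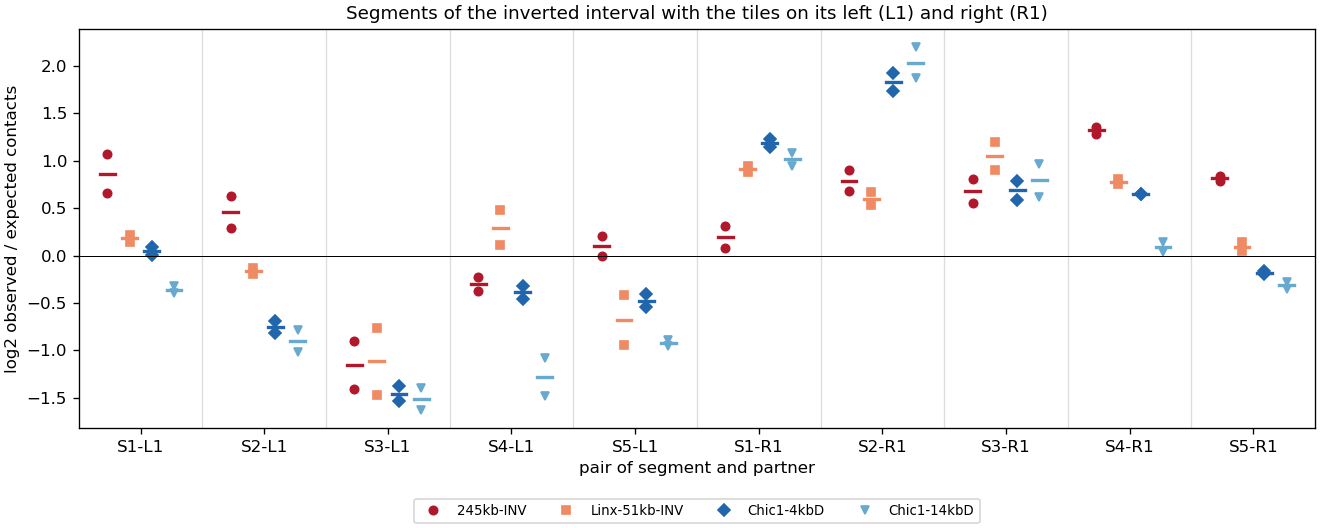
Log2 observed over expected contacts of the 5 segments with the tiles next to the 245 kb interval on the left (L1) and right (R1). Points are libraries and bars allele means. For S2 both inversions sit above the deletion alleles at L1 and below them at R1, whereas for S5 and S1 with R1 the 245kb-INV libraries sit apart from the other 6.

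Inside the interval, turning Linx alone and turning it together with Chic1 gave different contacts between Linx and the kept part of Chic1. S4 was read on its 8 kept fragments, without the 4 lost in Chic1-14kbD. By the authors' account that deletion spans every CTCF site within Chic1. Contacts of those 4 fragments were thus not measured here. They also report fewer contacts between Chic1 and Linx in both deletion alleles than in unmodified cells. Whether that adds to the differences below was not tested. S2 with S4, Linx with Chic1, was 1.72 and 1.66 in 245kb-INV and 0.91 and 0.65 in Linx-51kb-INV, with 1.90 and 1.87 in Chic1-4kbD and 1.31 and 1.37 in Chic1-14kbD. 245kb-INV thus lay between the deletion alleles and Linx-51kb-INV below both. The contact fell by 0.82 (SE 0.11, adjusted p = 1.74e-05) in Linx-51kb-INV, while 245kb-INV differed from the mean of the deletion alleles by 0.08 (adjusted p = 0.534). That mean joins unlike alleles, since Chic1-14kbD was below Chic1-4kbD there (-0.54, adjusted p = 0.00722). 245kb-INV differed by -0.19 from Chic1-4kbD alone (adjusted p = 0.225) and by 0.35 from Chic1-14kbD alone (adjusted p = 0.019). Linx-51kb-INV was lower than each alone (-1.10 and -0.55). 245kb-INV was higher than Linx-51kb-INV by 0.91 (SE 0.12, adjusted p = 6.94e-05), or 1.88 times. The difference was 0.78 to 1.11 and passed the test under all 17 alternatives run.

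S2 with S5, Linx with Tsx, fell in both inversions and more in Linx-51kb-INV. The values were 0.75 and 0.68 in 245kb-INV, 0.21 and -0.07 in Linx-51kb-INV, and 1.29 to 1.46 in the deletion libraries, without overlap. The falls were 0.65 (-0.65, adjusted p = 7.99e-05) and 1.29 (-1.29, adjusted p = 8.1e-08), and 245kb-INV was the higher by 0.64 (SE 0.12, adjusted p = 0.000994). S2 with its left neighbour S1 rose instead, by 0.33 in 245kb-INV (adjusted p = 0.00843) and by 0.72 in Linx-51kb-INV (adjusted p = 1.74e-05), and Linx-51kb-INV was higher by 0.39 (-0.39 as 245kb-INV minus Linx-51kb-INV, adjusted p = 0.0127). S2 with S3 was 0.71 to 1.08 in all 8 libraries, and neither inversion passed (0.14 and 0.10, adjusted p = 0.274 and 0.525). With the Linx interval mirrored over its labelled length, an alternative chosen after seeing the data, the Linx-51kb-INV value became -0.44 (adjusted p = 0.00268). The rise of S2 with S1 in 245kb-INV missed the threshold against Chic1-4kbD alone (adjusted p = 0.089).

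Pairs without the Linx interval moved as well. S3 and S5 lie on either side of Chic1, part of which both deletion alleles lack. Their scaled counts, not corrected for distance, were 837.0 and 858.2 in Chic1-4kbD and 1463 and 1544 in Chic1-14kbD. Whether the deletions add to the difference from the inversions was not tested. S3 with S5, the 5′ end of Linx and Cdx4 with Tsx, was -0.49 and -0.74 in 245kb-INV, 0.19 and 0.02 in Linx-51kb-INV and 0.52 to 0.99 in the deletion libraries. It fell by 1.31 (-1.31, SE 0.13, adjusted p = 1.55e-07) in 245kb-INV and by 0.60 (-0.60, SE 0.12, adjusted p = 0.00101) in Linx-51kb-INV, with a direct difference of -0.72 (adjusted p = 0.000994). S1 with S4 rose by 1.00 and 0.74, but Chic1-14kbD was below Chic1-4kbD there by 1.11 (-1.11), and Linx-51kb-INV did not pass against Chic1-4kbD alone (adjusted p = 0.493). S4 with S5, neighbours on every allele, was between -0.21 and 0.19 in all 8 libraries.

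**Figure D5:**
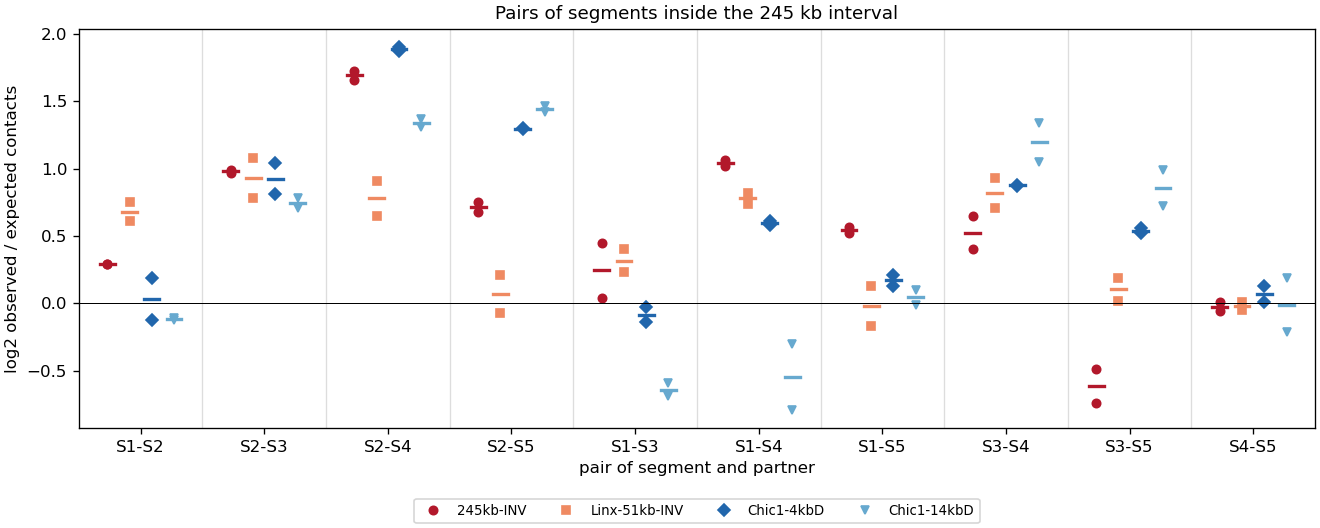
Log2 observed over expected contacts for each pair of different segments inside the 245 kb interval. Points are libraries and bars allele means. At S2-S4 the 2 Linx-51kb-INV libraries sit below the other 6, at S2-S5 both inversions sit below the deletion alleles, and at S3-S5 245kb-INV is lowest.

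The tile pairs that changed in 245kb-INV only lay mostly at the ends of the interval. Of the 8, 7 had a tile of the interval, and they include I1 with R1 (-0.87 in 245kb-INV and 0.10 in Linx-51kb-INV), I5 with R2 (1.05 and 0.14), I5 with R3 (1.03 and 0.08) and L1 with I1 (1.09 and 0.33). I1 with R1 was -0.10 and 0.13 in 245kb-INV and 0.74 to 1.03 in the other 6 libraries, and the inversions differed by -0.97 (SE 0.09). I2 with I4 (0.75 and 0.29) was also named by the rule, but its direct difference (0.25 to 0.60) passed in 11 of 21 alternatives. Against Chic1-14kbD alone Linx-51kb-INV passed there as well (0.38, adjusted p = 0.0249). R48 with R50, the pair without a tile of the interval, lies at the far right of the map. L1 with I1, I1 with R1, I5 with R2 and I5 with R3 change direction when contacts are not corrected for the mirrored distance. Tiles here follow the sequence. In position coordinates, with a primer efficiency factor, each tile held whatever sequence the allele placed there. I1 with R1 then differed directly by 0.07 (adjusted p = 0.717). I5 differed by -0.19 with R2 (adjusted p = 0.594) and by 0.09 with R3 (adjusted p = 0.796). L1 with I1 differed by -0.37 (adjusted p = 0.0264), and 9 of 60 pairs of the interval with the right flank were called (15.0%).

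The 19 pairs of Linx-51kb-INV only were mostly elsewhere. Of these, 17 had no tile of the interval, and 16 of the 19 also differed between the deletion alleles. Of the 8 named by the rule, 6 lay wholly right of the interval. They were R31 with R41 (2.09), R31 with R39 (0.95), R22 with R36 (0.94), R40 with R53 (-1.08), R34 with R48 (-1.03) and R36 with R46 (-0.92). In each of the 6 the deletion alleles differed as well, by -2.51, -0.81, -1.53, 1.15, 1.14 and 0.90. R31 with R41 was 2.54 and 3.37 in Linx-51kb-INV, 0.86 and 1.82 in 245kb-INV, 2.19 and 2.17 in Chic1-4kbD and -0.38 and -0.28 in Chic1-14kbD. Without single dominant primer pairs its Linx-51kb-INV value became -0.06 (adjusted p = 0.884). What sets these distant pairs apart was not tested.

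The 2 pairs of this class with a tile of the interval were I2 with I5 and I4 with R5. I2 with I5 was 0.43 and 0.19 in Linx-51kb-INV, 1.17 and 0.88 in 245kb-INV and 1.03 to 1.40 in the deletion libraries. It fell by 0.94 (-0.94, SE 0.10, adjusted p = 6.37e-06) in Linx-51kb-INV and the inversions differed by 0.71 (SE 0.12, adjusted p = 0.00187). I4 with R5 rose by 1.08 in Linx-51kb-INV, but the deletion alleles differed by -1.33 there, and the value was -0.37 (adjusted p = 0.38) once single dominant primer pairs were left out.

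The spread between libraries of an allele was alike in the 4 alleles. The median difference between the 2 libraries of an allele over all segment pairs was 0.24 in 245kb-INV, 0.24 in Linx-51kb-INV, 0.16 in Chic1-4kbD and 0.22 in Chic1-14kbD. Of 110 segment pairs, 30 differed directly between the inversions (27.3%), with 18 higher (16.4%) and 12 lower (10.9%) in 245kb-INV. In all 52.7% were called in 245kb-INV and 34.5% in Linx-51kb-INV against the deletion alleles, with 31 changed in both inversions (28.2%), 16 in 245kb-INV only (14.5%) and 2 in Linx-51kb-INV only (1.82%). Without the first Linx-51kb-INV library the direct count was 17. P-values here measure the spread between these few libraries. The prefixes of the 245kb-INV library titles occur in no other allele, so a batch that they might mark and the allele cannot be told apart. Linx-51kb-INV and Chic1-4kbD share a prefix, and within it S2 with R1 was lower in Linx-51kb-INV by 1.24 (-1.24, adjusted p = 9.73e-07).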

How the data were processed

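5C counts ligations between restriction fragments with forward and reverse primers. Per the methods and labels, the authors trimmed reads and aligned them with Bowtie2 to all primer pairs, and the deposited values are raw read counts per forward and reverse primer pair, 1 table a library, not normalised or pooled. The genome build is mm9 (NCBIM37).

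Only counts between chromosome X primers were analysed. A primer was dropped if its total lay outside 0.1 to 10 times the median over its type. Also dropped were 4 fragments lost in Chic1-14kbD, all of Chic1 and so missing from S4 in every library, and 2 cut by a breakpoint. Together this left 499 forward primers (of 511) and 512 reverse primers (of 528). Expected counts came from each library's distance decay in 40 distance bins after mirroring each inverted interval. Tile pairs averaging 50 counts or more were fitted with edgeR 4.0.16 (glmQLFit, glmQLFTest, R 4.3.3), all 8 libraries and 4 alleles in a single fit with log expected counts as offset, and segment pairs in a fit of their own. The threshold was an adjusted p of 0.05. Shared pairs were called in both inversions with the same sign, and pairs of a single inversion also required the direct contrast. The test was checked on simulated data. The alternatives included DESeq2 1.42.0.

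Named tile pairs are up to 4 for each class and direction, those with the largest fold change whose libraries do not overlap, and named segment pairs are those with L1 or R1 and those of S2. The members, tiles, segments and lists were chosen with earlier results of these data known. Genes are from GENCODE on NCBIM37. In that annotation Linx is 4930519F16Rik. No replicate number pairs libraries across alleles. Reads carry no molecular identifiers, so PCR copies are not separate ligations. Pairs named by the rule that involve tiles of a withheld locus are not reported here.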

Additional observations from a re-analysis of the deposited data

Results flagged for a closer look

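Contacts between the primers on chromosome X and those on chromosome 5 entered no comparison. In the second Linx-51kb-INV library they took 2.34% of all counts, above the highest deletion library (1.74%), while the other 3 inversion libraries had 1.18 to 1.56%. This library was also the one without which the direct tile pair calls fell most (below), and whether these are related was not tested.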

How the results depend on the processing

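The falls of S2 with R1, R3 and R5 kept their direction and passed the test in both inversions under all 16 alternatives run. In Linx-51kb-INV, S2 with R2 passed in 15 of 16, missing without its first library (-0.78), and S2 with R4 in 14 of 16, missing without its first (-1.14) or second library (-1.01). S2 with S4 stayed higher in 245kb-INV than in Linx-51kb-INV under all 17. The counts were less stable. Direct tile pair calls (46) were 79 by DESeq2 and 16 to 48 with 1 library left out, 28 without the first 245kb-INV library and 16 without the second Linx-51kb-INV library. Shared pairs (53) were 28 with library size alone, about 1.0e+02 in position coordinates (8.71% of 1159 pairs), 23 of 316 with 100 kb tiles, 7 against Chic1-4kbD alone, 166 against Chic1-14kbD alone, 10 with Chic1-14kbD as control of 245kb-INV and Chic1-4kbD of Linx-51kb-INV, and 24 with these exchanged. With 1 library left out they were 33 to 51, the lowest without the second Chic1-4kbD library. Pairs of 245kb-INV only (8) were 19 in position coordinates, 3 with 100 kb tiles, 17 against Chic1-4kbD alone, and 14 and 5 with the 2 separate controls. They were 5 to 9 with 1 library left out, 5 without the first Chic1-4kbD or the second Linx-51kb-INV library. Segment pairs that differ directly (30) were 17 to 34, the lowest without the first Linx-51kb-INV library.

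Pairs whose distance the large inversion changes turned direction with library size alone and with reference coordinates, given in that order. Against the deletion alleles, 245kb-INV had -1.51 and -1.43 at L1 with I1, -0.24 and -0.18 at I5 with R2, 1.11 and 1.16 at I1 with R1, -1.23 and -1.16 at S1 with L1, 0.82 and 0.88 at S1 with R1, -0.36 and -0.26 at S4 with R1 -1.09 and -1.03 at S5 with R1, -0.35 and -0.30 at S5 with R2 and -0.16 and -0.08 at S5 with R3. Directly, the inversions differed by -1.57 and -1.77 at L1 with I1, -0.10 and -0.32 at I5 with R2, 1.29 and 1.06 at I1 with R1, -1.30 and -1.5 at S1 with L1, 0.92 and 0.69 at S4 with L1, 1.29 and 1.07 at S1 with R1, 0.46 and 0.29 at S1 with R2, -0.44 and -0.66 at S4 with R1, -1.13 and -1.37 at S5 with R1 and -0.02 and -0.24 at S5 with R2. I5 with R3 turned to -0.05 against the deletion alleles with library size and to -0.04 directly with reference coordinates. S1 with S2 turned to 0.09 directly with library size. These settings leave out the distance that the main values correct for. Without single dominant primer pairs Linx-51kb-INV turned to -0.16 at R16 with R25, -0.06 at R31 with R41 and -0.37 at I4 with R5. The Linx interval mirrored over its labelled length, chosen after seeing the data, gave -0.44 at S2 with S3. For the other changes the cause was not tested. No paired analysis was possible because the alleles share no replicate numbers in the labels. Each allele has 2 libraries, and 1 of the 8 is shallow, which limits the precision.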
